A study of Mus musculus with 8 samples.

Results

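Collagen genes were followed in the transcriptome of mouse bone marrow mesenchymal stem/stromal cells (MSCs) that carried or lacked Dnmt3l. They were chosen by symbol alone, as every row named Col, a number, a and a number, which gave 44 of the 24346 genes in the table. By the type of molecule that they form, 11 were fibrillar, 9 network forming, 9 FACIT (fibril-associated collagens with interrupted triple helices) and 15 of other kinds. Expression was measured as RPKM, read numbers scaled to transcript length and library size. Levels can thus be compared roughly between genes, and between libraries as far as their scaling holds.

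Collagens are extracellular proteins in which chains wind around each other as a helix. Fibrillar collagens build the fibrils of bone, cartilage and skin, network collagens build basement membranes and related sheets, and FACIT collagens sit on the surface of fibrils. Osteoblasts lay down a matrix made mostly of type I collagen, on which mineral is later deposited, while type II collagen is the main fibrillar collagen of cartilage and type X collagen marks hypertrophic chondrocytes.

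There were 8 libraries in 4 groups of 2. The wild type (WT) cells came from Dnmt3l+/+ littermates and the KO cells from Dnmt3l-/- mice of the tmEnls allele, all of the C57BL/6 strain, and both genotypes were studied at passage 4. Undifferentiated cells grew in αMEM with 20% FBS, and differentiating cells had spent 3 days in osteogenic medium, which is αMEM with 10% FBS, L-ascorbic acid 2-phosphate at 50 μM, β-glycerophosphate at 10 mM and dexamethasone at 0.1 μM. Ascorbic acid is a cofactor of the enzymes that hydroxylate collagen chains, and serum differed between the states as well. By the methods, osteogenic medium was given once cells were confluent, so density and time in culture may differ between the states too. Induction was therefore compared as a whole, and its parts cannot be told apart. The donors were female, 8 to 16 weeks old, and the methods describe cells mixed from 3 mice of a genotype for each experiment. The sources do not say if both libraries of a group stem from 1 mix or from 2, so p-values measure the spread between these libraries, which may be technical. The KO allele is present from the germ line on, so an effect on donor animals and an effect in culture cannot be told apart. In these bulk samples, fewer cells of a type and less RNA per cell cannot be told apart either.

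Steps between low values put the depth at 48.4 to 67.1 M scaled reads per library. Dnmt3l, the deleted gene, was listed at 1.56, 1.09, 0.845 and 0.830 RPKM in the WT libraries and at 0 in the 4 KO libraries. Stromal markers summed to 1510 to 3390 RPKM over 9 genes, mostly Ly6a and Itgb1. The other members were lower, with Pdgfra at 20.4 to 154 RPKM and Nt5e at 3.92 to 6.57. The leukocyte markers Ptprc and Itgam, which the isolation selects against, were at most 0.356 RPKM, and the endothelial markers Pecam1, Cdh5 and Tie1 were under 0.1 RPKM. Other macrophage and endothelial markers were higher, with Lyz2 at 3.19 to 26.5 RPKM, Cd14 at 1.23 to 4.90 and Tek at 0.358 to 4.13, so traces of these lineages may be present. Libraries of a group were close for the collagen genes, with a median ratio of 1.04 to 1.07 between them. The libraries of differentiating KO MSCs stood furthest apart over all genes, at a median absolute log2 difference of 0.0956 against 0.0448 to 0.0606 in the other groups.

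Of the 44 collagen genes, 33 had a mean of at least 0.1 RPKM and were tested. The 11 below it were Col4a3 and Col4a4 of the network class, Col9a1, Col19a1 and Col22a1 of the FACIT class, and Col6a4, Col6a5, Col6a6, Col13a1, Col25a1 and Col26a1. The highest value that any of these reached was 0.0956 RPKM, for Col4a3, a chain of the kidney glomerular basement membrane. For scale, 3 reads on the longest Col4a3 transcript would give 0.00535 to 0.00742 RPKM, so its values lay above the counting floor, whereas Col13a1, Col9a1 and Col26a1 were listed at 0 in 4, 5 and 3 libraries. This floor covers counting error only. The members that were tested spanned several orders of magnitude, with 13 at or above 100 RPKM, 6 between 10 and 100, 6 between 1 and 10, and 8 between 0.1 and 1. Col9a2 reached the minimum mean through the differentiating libraries, so it could be tested only because it was higher there.

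**Figure D1:**
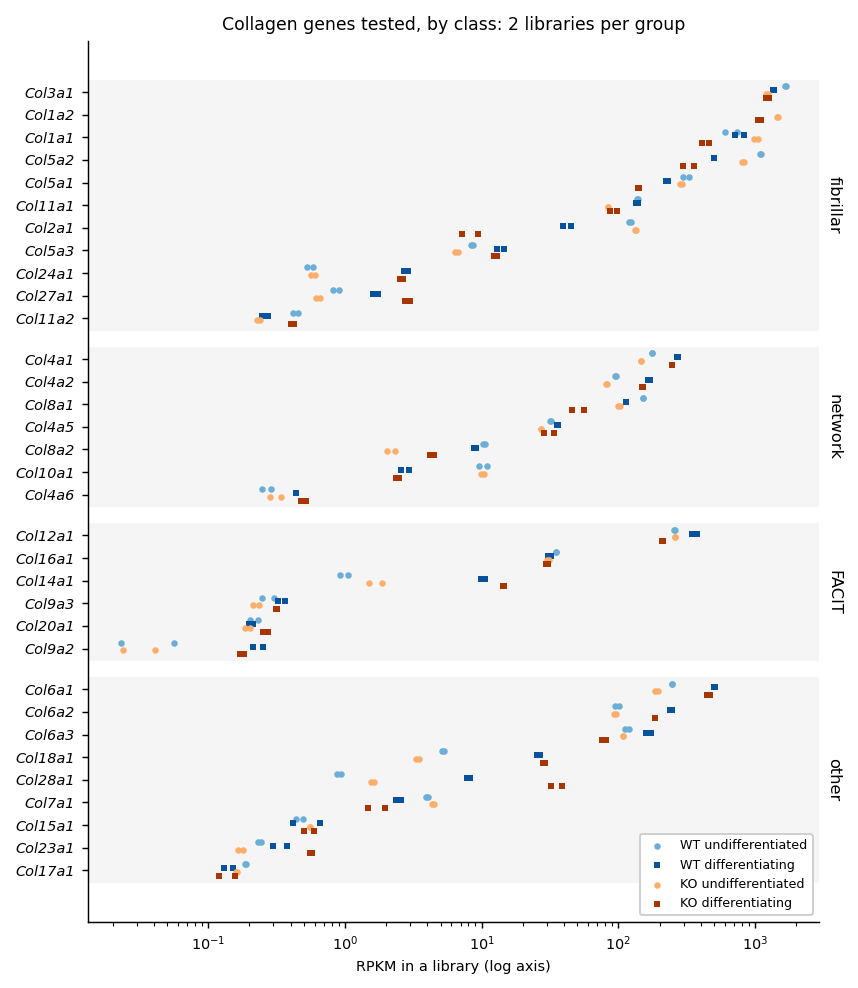
RPKM on a log axis for the 33 collagen genes tested, by class and in order of their mean level within a class. Each point is a library, with circles for undifferentiated and squares for differentiating cells in blue (WT) and orange (KO). Col3a1, Col1a2 and Col1a1 lie at the right end, and Col1a2 has points for KO alone because it was listed at 0 in WT.

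Leaving out Col1a2, which has no WT estimate, Col3a1 had the highest level in each library. It encodes the chain of type III collagen, a fibrillar collagen of soft tissue. Its levels were 1652 and 1672 RPKM in undifferentiated WT MSCs, 1384 and 1341 in differentiating WT, 1192 and 1253 in undifferentiated KO, and 1263 and 1195 in differentiating KO. WT was above KO in each state, but the difference passed the test in undifferentiated MSCs alone (log2 fold changes -0.44 ± 0.06 and -0.15 ± 0.06 SE). Col1a2, which encodes the second chain of type I collagen, stood at 1472 and 1446 RPKM in undifferentiated KO MSCs, above Col3a1, and at 1098 and 1047 in differentiating KO, below it. In the 4 WT libraries Col1a2 was listed at 0, while its partner Col1a1 was at 597 to 829.8 RPKM there. Such zeros also stood for Actb in undifferentiated KO MSCs and for Lox in differentiating WT, and 50 genes had them in at least 1 group. They were treated as missing estimates, so Col1a2 was compared only between the states of KO MSCs, and no statement on its genotype difference can be made.

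Fibrillar collagens held most of the collagen RNA in each library even without Col1a2, and this share was lower after induction in both genotypes. Summed over 43 genes, leaving Col1a2 out of all libraries, collagen RPKM came to 5321 and 5180 in undifferentiated WT MSCs and to 5130 and 4881 after induction. In KO MSCs the sums were 4549 and 4719 before and 3850 and 3719 after induction, so the KO libraries lay below the WT libraries in each state for these 43 genes. Col1a2, at 1047 to 1472 RPKM in KO, has no WT estimate, so the genotype order of a sum that includes it is not known. Fibrillar genes made up 76.2% to 77.3% of the sum in the 4 undifferentiated libraries and 59.4% to 61.1% in the 4 differentiating libraries. As Col1a2 is a fibrillar gene, leaving it out lowers these shares, by an amount not known in WT. The class of other collagens, which is mostly type VI here, went from 8.71% to 8.97% of the sum up to 18.9% to 20.8%. Network collagens went from 7.78% to 9.24% up to 11.8% to 12.9%. FACIT collagens reached 8.17% and 7.88% in differentiating WT but 6.71% and 6.82% in differentiating KO, against 5.58% to 6.42% before induction. These sums are dominated by a few genes and are descriptions without a test.

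**Figure D2:**
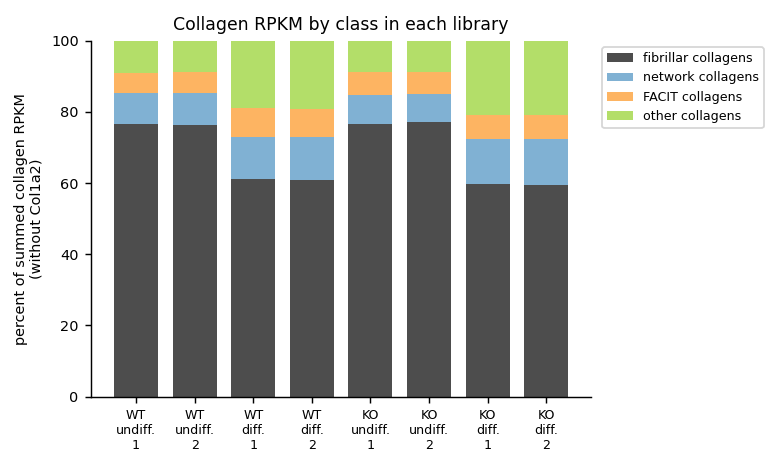
Stacked bars of the percent of summed collagen RPKM (43 genes, without Col1a2) that each class holds, with a bar per library. The fibrillar share is 76.2% to 77.3% in the 4 undifferentiated libraries and 59.4% to 61.1% in the 4 differentiating libraries.

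The first question of the design was how KO and WT MSCs differed before any induction. Of 32 collagen genes compared, 14 fell in KO, 3 rose and 15 did not pass the test. The widest difference was that of Col8a2, which encodes a chain of type VIII collagen, a short-chain network collagen of endothelia and the cornea. Col8a2 was at 10.2 and 10.5 RPKM in undifferentiated WT MSCs and at 2.02 and 2.34 in undifferentiated KO. The groups did not overlap, and WT was 4.75-fold higher by the ratio of means (log2 fold change -2.20 ± 0.07 SE, adjusted p = 0.000121, limma). It was the only collagen gene past both limits of a DEG in this comparison, an adjusted p under 0.05 and an absolute log2 fold change above 1.

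Without the fold limit, 17 of the 32 collagen genes with WT values (53.1%) passed the test in undifferentiated MSCs, 14 lower and 3 higher in KO. The median log2 fold change over the 32 was -0.17, with 23 negative and 9 positive, against a median of -0.0035 over 15304 genes. That median was -0.09 with a pseudocount of 1 or with no minimum on the mean. Of all genes tested 32.1% passed the adjusted p, and 0.562% and 1.08% were DEGs higher and lower in KO. By class, 6 fibrillar, 5 network, 1 FACIT and 2 other collagen genes fell, while the 3 that rose were Col1a1, Col14a1 and Col28a1. Among those that fell, Col11a1 went from 139.8 and 137 RPKM in WT to 83.9 and 84.3 in KO (log2 fold change -0.72 ± 0.06 SE, adjusted p = 0.000787, limma). Col11a1 encodes a chain of type XI collagen, which nucleates thin fibrils. Col18a1, whose product carries the endostatin fragment, was at 5.27 and 5.12 RPKM in WT and 3.50 and 3.28 in KO. Basement membrane genes moved less, with Col4a1 at 176 and 178 RPKM in WT and 145 and 146 in KO (log2 fold change -0.28 ± 0.03 SE).

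After 3 days of induction 5 collagen genes were DEGs between the genotypes, and these were Col2a1, Col6a3, Col8a1 and Col8a2 with lower levels in KO and Col28a1 with a higher level. Of the 32 members, 19 (59.4%) passed the adjusted p, 14 lower and 5 higher, with a median log2 fold change of -0.15 (23 negative, 9 positive) against -0.0069 over 15308 genes. The background was 40.7% of genes past the adjusted p, with 1.29% DEGs higher and 1.9% DEGs lower in KO. By class, 5 fibrillar, 4 network, 1 FACIT and 4 other collagen genes fell, and the 5 that rose were Col27a1, Col11a2, Col14a1, Col28a1 and Col23a1.

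**Figure D3:**
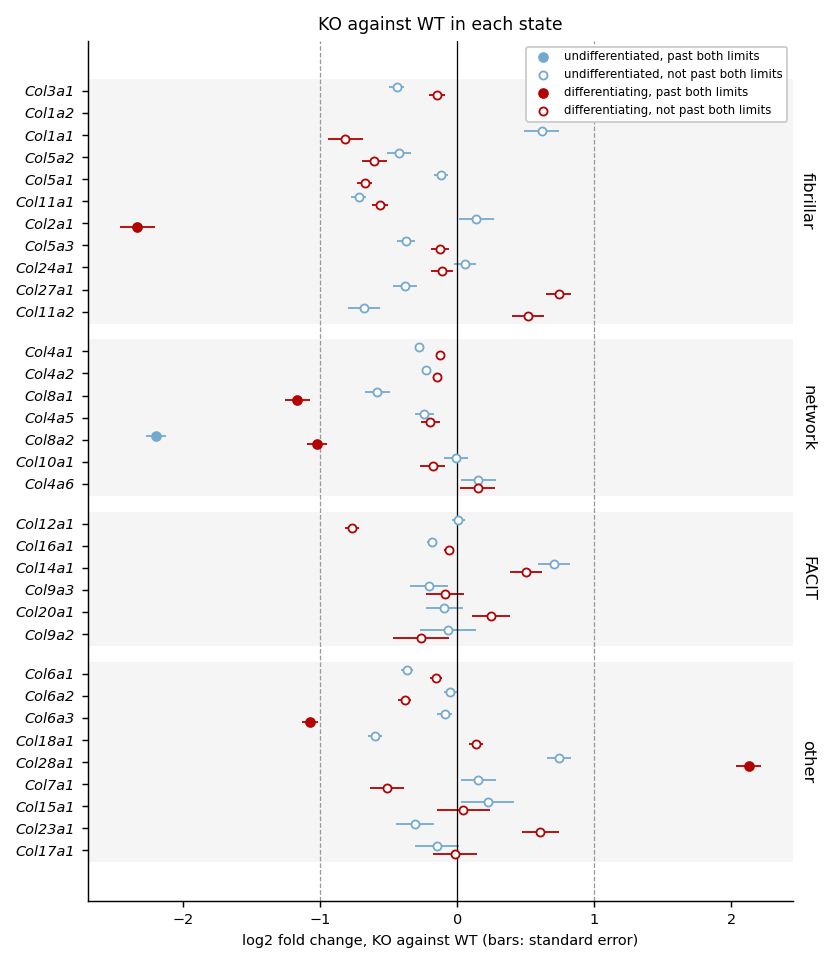
Log2 fold change of KO against WT for each collagen gene, in undifferentiated (blue) and differentiating (red) MSCs, with bars of 1 standard error. Filled points passed both limits of a DEG, and dashed lines mark the fold limit. Most points lie left of 0, and Col2a1 and Col28a1 stand at -2.34 and 2.13 in the differentiating state.

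Col2a1 encodes the chain of type II collagen. It was at 39.1 and 45.1 RPKM in differentiating WT MSCs and at 9.40 and 7.21 in differentiating KO. WT was 5.07-fold higher (log2 fold change -2.34 ± 0.13 SE, adjusted p = 0.000632, limma), although the undifferentiated levels of 123 and 119 in WT and 133 and 134 in KO had missed the threshold (adjusted p = 0.442, limma). Genes of other cartilage proteins stood at very different levels. The proteoglycan gene Acan and the matrilin gene Matn1 were under 0.1 RPKM in all libraries, and the type IX collagen genes, which encode partners of type II collagen on cartilage fibrils, reached at most 0.366 RPKM, while Col11a1 was at 83.9 to 139.8 RPKM. Over the 7 chondrocyte markers fixed here the sum was 278 to 300 RPKM in differentiating WT and 477 to 560 in differentiating KO, nearly all of it Comp, a matrix gene also expressed in tendon and by fibroblasts. Of the 5 markers tested in that state, Comp rose in KO (log2 fold change 0.86 ± 0.08 SE), whereas Hapln1 (-1.56 ± 0.11 SE), Matn3 (-0.65 ± 0.18 SE) and the transcription factor gene Sox9 (-0.47 ± 0.12 SE) fell. The part of these markers in the Col2a1 difference was not tested.

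Col6a3, the gene of the longest common chain of type VI collagen, was at 172 and 159.5 RPKM in differentiating WT and at 81.5 and 75.4 in differentiating KO (log2 fold change -1.08 ± 0.06 SE, adjusted p = 0.00062, limma). Before induction it had been at 119 and 112 in WT and at 108 and 108 in KO, where the difference missed the threshold (adjusted p = 0.261, limma). Its partner genes in the same molecule differed less in the differentiating state. Col6a2 was at 246 and 238 RPKM in WT and at 186 and 184 in KO, and Col6a1 at 513 and 503 in WT and at 467 and 445 in KO, with log2 fold changes of -0.38 ± 0.05 and -0.15 ± 0.04 SE.

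Both type VIII genes were lower in differentiating KO MSCs. Col8a1, the more abundant chain, was at 113 and 113 RPKM in WT and at 55.9 and 45.4 in KO (log2 fold change -1.17 ± 0.09 SE, adjusted p = 0.000936, limma), after 152 and 152 in WT and 103 and 99.6 in KO before induction. Col8a2 was at 9.13 and 8.81 RPKM in differentiating WT and at 4.49 and 4.22 in differentiating KO (log2 fold change -1.03 ± 0.07 SE, adjusted p = 0.000863, limma). That value lies close to the fold limit, and it was -0.98 without replicate 2 of differentiating KO MSCs and -0.90 with a pseudocount of 1, each of which ends the call as a DEG. WT and KO did not overlap for either gene in either state.

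Col28a1 went against the other 4. It encodes the chain of type XXVIII collagen, a von Willebrand factor A domain collagen best known around peripheral nerve. It was at 8.18 and 7.78 RPKM in differentiating WT and at 32.2 and 38.4 in differentiating KO, which is 4.43-fold higher (log2 fold change 2.13 ± 0.09 SE, adjusted p = 0.000462, limma). Before induction KO was higher too, with 1.63 and 1.54 RPKM against 0.934 and 0.880 in WT (log2 fold change 0.74 ± 0.09 SE, adjusted p = 0.003, limma). The lowest KO library was thus above the highest WT library in each state.

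Markers of macrophages and leukocytes differed between genotypes as well. Summed over 8 genes in the table, of which 7 were above 0 in all libraries, they were at 17.9 to 19.1 RPKM in undifferentiated WT and 8.67 to 9.53 in undifferentiated KO, and at 31.1 to 35.7 and 13.7 to 14.7 after induction. Lyz2 was the largest part of this sum, and 3 of 7 tested markers fell past both limits in undifferentiated and 4 of 7 in differentiating KO MSCs. By the adjusted p alone, 3 fell and 2 rose (Csf1r, Cd14) before induction, and 6 fell and 1 rose (Cd14) after it. Cd14 was at 1.23 and 1.47 RPKM in undifferentiated WT and 2.59 and 2.18 in undifferentiated KO. Osteoblast markers were lower in differentiating KO as well, with a sum of 1390 to 1490 RPKM in WT and 707 to 828 in KO over 8 genes, led by Ibsp and Spp1. Of these 8 genes, 6 fell in differentiating KO by the adjusted p and 0 rose, and 1 (Bglap, under 1 RPKM) fell past both limits. The part of either list in the collagen differences was not tested.

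As DNMT3L is a cofactor of DNA methylation, the bases before the transcription start were set beside the levels, although methylation itself was not measured in these libraries. The 250 bases upstream of the RefSeq start (build GRCm38.p6, which is mm10) were available for 35 of the 44 genes, as 38 windows. They are shown for Col28a1, the gene furthest above WT in KO, for Col8a1 and Col6a3, which lay lower in differentiating KO, and for Col10a1, which fell in both genotypes (below). Windows that touch an annotated exon, such as that of Col8a2, are left out. Sequences run 5′ to 3′ toward the start on the strand of the gene, and capitals mark CpG dinucleotides, the main site of DNA methylation in mammals. They lie at chr6:8192618-8192867 (minus strand), chr16:57754738-57754987 (minus), chr1:90843972-90844221 (minus) and chr10:34389731-34389980 (plus).
Col28a1: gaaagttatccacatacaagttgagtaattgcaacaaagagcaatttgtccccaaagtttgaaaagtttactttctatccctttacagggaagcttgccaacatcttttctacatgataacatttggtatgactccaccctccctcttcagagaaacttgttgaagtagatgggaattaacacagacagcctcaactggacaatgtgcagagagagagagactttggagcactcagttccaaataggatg
Col8a1: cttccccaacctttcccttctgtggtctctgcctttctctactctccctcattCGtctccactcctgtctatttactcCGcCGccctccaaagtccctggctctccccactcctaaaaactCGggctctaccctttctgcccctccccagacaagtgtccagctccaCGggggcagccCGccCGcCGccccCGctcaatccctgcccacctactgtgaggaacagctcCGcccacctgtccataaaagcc
Col6a3: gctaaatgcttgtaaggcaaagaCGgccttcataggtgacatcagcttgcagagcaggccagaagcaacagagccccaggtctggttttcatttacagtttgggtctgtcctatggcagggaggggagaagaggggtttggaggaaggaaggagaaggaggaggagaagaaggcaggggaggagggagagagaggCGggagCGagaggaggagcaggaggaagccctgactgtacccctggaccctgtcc
Col10a1: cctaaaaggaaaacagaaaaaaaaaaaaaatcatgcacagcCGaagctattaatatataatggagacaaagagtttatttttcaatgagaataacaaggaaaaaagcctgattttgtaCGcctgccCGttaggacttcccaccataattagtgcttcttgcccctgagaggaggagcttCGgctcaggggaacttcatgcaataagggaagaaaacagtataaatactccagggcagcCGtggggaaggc

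The Col28a1 window held 0 CpG, that of Col6a3 held 3, that of Col10a1 held 5 and that of Col8a1 held 10. The Col8a2 window, not printed, held 24. Over the 38 collagen windows the median was 9.5 CpG, and 50% had at least 10, against a median of 6 and 37.8% over all 32851 windows. Of the DEGs lower in differentiating KO, Col6a3, Col8a1 and Col8a2 thus ranged from CpG-poor to CpG-rich starts, and Col2a1 had no window. The count of 0 was not particular to Col28a1, as it also held for Col3a1, which was lower in undifferentiated KO, and for Col9a1. A link between CpG content and level was not tested. Among short motifs searched on both strands, the GC box GGGCGG was in 57.9% of collagen windows and 32.7% of all windows, CCAAT in 34.2% and 33.8%, and the TATA box TATAAA in 13.2% and 12.4%. Col8a1 and Col8a2 both held the GC box, Col10a1 held the TATA box, and none of the 3 motifs was in the windows of Col28a1 and Col6a3. A match is a description of letters and not a binding site.

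Induction moved more collagen genes than genotype did, as it did for genes at large, and members moved in both directions. In WT MSCs 24 of 32 members passed the adjusted p (14 higher, 10 lower), and in KO MSCs 26 of 33 (16 higher, 10 lower). These shares were 75% and 78.8%, against backgrounds of 64.5% in WT and 72.9% in KO. DEGs numbered 7 higher and 3 lower in WT and 8 higher and 7 lower in KO, where 9.68% and 4.62% of all genes in WT and 13% and 9.82% in KO were DEGs higher and lower. The counts of higher members include Col9a2 in both genotypes. That gene was tested only because it was higher after induction, so it is no support for these counts. The median log2 fold change of the members was 0.23 in WT and 0.30 in KO, against medians of 0 and -2e-04 over all genes. These medians depended on the settings, from 0.13 (pseudocount of 1, median centring) to 0.37 (without replicate 2 of differentiating WT) in WT and from 0.07 (minimum mean of 0.5 RPKM) to 0.42 (pseudocount of 0.01) in KO.

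**Figure D4:**
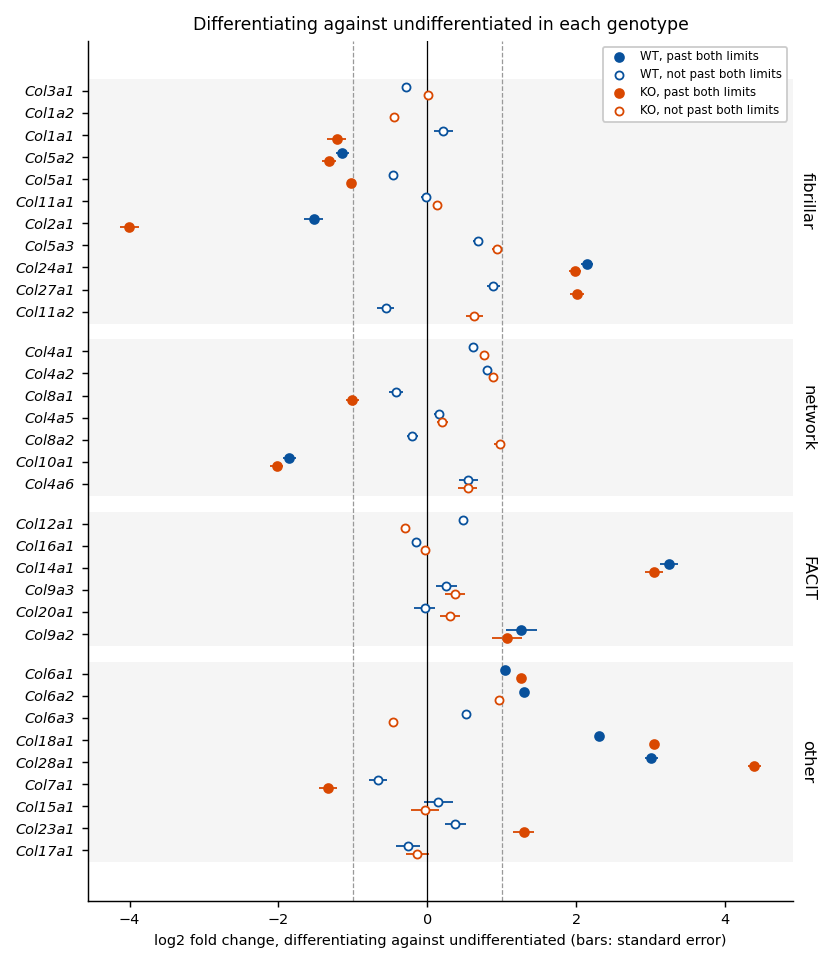
Log2 fold change of differentiating against undifferentiated MSCs for each collagen gene in WT (blue) and KO (orange), with bars of 1 standard error. Filled points passed both limits of a DEG, and dashed lines mark the fold limit. Col14a1, Col18a1, Col28a1 and Col24a1 lie far to the right in both genotypes, and Col2a1 and Col10a1 far to the left.

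Among the fibrillar genes, 3 rose and 5 fell in WT, and 4 rose and 5 fell in KO. Col5a2 encodes a chain of type V collagen, which sets the width of type I fibrils. It went from 1084 and 1113 RPKM to 496 and 497 in WT and from 808 and 828 to 359.6 and 297 in KO, with log2 fold changes of -1.14 ± 0.09 SE (adjusted p = 1e-04, limma) and -1.32 ± 0.09 SE (adjusted p = 3.14e-05, limma). The levels of the states did not overlap in either genotype, and the WT value was -0.98, under the fold limit, with quantile normalization. Col5a1, the other common chain of type V, went from 326 and 297 RPKM to 229.8 and 221 in WT and from 282 and 291 to 140.1 and 142 in KO, and it was a DEG in KO (log2 fold change -1.02 ± 0.05 SE, with the call lost at -0.995 without replicate 2 of undifferentiated KO and at -0.94 with quantile normalization) but not in WT (-0.46 ± 0.05 SE). Col2a1 fell from 123 and 119 RPKM to 39.1 and 45.1 in WT and from 133 and 134 to 9.40 and 7.21 in KO, which is 2.88-fold and 16.1-fold lower.

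Col1a1, the gene of the main chain of type I collagen, behaved differently in the genotypes. In WT it was at 735 and 597 RPKM before and at 829.8 and 712 after induction, where the states overlap and the change missed the threshold (log2 fold change 0.21 ± 0.13 SE, adjusted p = 0.185, limma). In KO it went from 985 and 1048 RPKM down to 411 and 463 (log2 fold change -1.22 ± 0.13 SE, adjusted p = 0.000212, limma). Between genotypes, Col1a1 was thus higher in KO before induction (log2 fold change 0.62 ± 0.13 SE) and lower after it (-0.82 ± 0.13 SE), with adjusted p of 0.0155 and 0.00502 (limma) and both below the fold limit. Col1a2 fell in KO as well, with a log2 fold change of -0.44 ± 0.06 SE (adjusted p = 0.00351, limma).

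The low-level fibrillar genes Col24a1 and Col27a1 rose in both genotypes. Col24a1, linked to type I fibrils of developing bone, went from 0.531 and 0.581 RPKM to 2.90 and 2.70 in WT and from 0.562 and 0.601 to 2.66 and 2.51 in KO (log2 fold changes 2.14 ± 0.08 and 1.98 ± 0.08 SE). Col27a1, known from cartilage, went from 0.900 and 0.823 RPKM to 1.76 and 1.59 in WT and from 0.613 and 0.661 to 2.74 and 2.99 in KO, where alone it was a DEG (log2 fold change 2.01 ± 0.09 SE against 0.88 ± 0.09 in WT). All of these remained far below the abundant fibrillar genes.

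In the network class 3 genes rose and 3 fell in WT, and 5 rose and 2 fell in KO. The basement membrane genes Col4a1 and Col4a2 rose under the fold limit in both genotypes. Col4a1 reached 274 and 267 RPKM in differentiating WT and 248 and 246 in differentiating KO, and Col4a2 reached 170.1 and 164 in WT and 149 and 152 in KO from 96.4 and 95.0 in WT and 82.1 and 81.4 in KO. Their log2 fold changes were 0.61 and 0.80 in WT and 0.76 and 0.88 in KO, with SE of 0.03 each. These are neighbours that run in opposite directions on chromosome 8, and their annotated starts (11312826 for Col4a1, 11312805 for Col4a2, mm10) overlap by 22 bases.

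Col10a1 fell in both genotypes. It went from 9.62 and 10.9 RPKM to 2.96 and 2.57 in WT and from 9.84 and 10.5 to 2.49 and 2.36 in KO, with log2 fold changes of -1.85 ± 0.09 SE (adjusted p = 1.53e-05, limma) and -2.02 ± 0.09 SE (adjusted p = 6.05e-06, limma). Genotypes did not pass the test for Col10a1 in either state. The gene lies inside Nt5dc1 on the opposite strand, and the reads were aligned by strand. Col8a1 fell in WT from 152 and 152 RPKM to 113 and 113 and in KO from 103 and 99.6 to 55.9 and 45.4, where it was a DEG at the edge of the fold limit (log2 fold change -1.01 ± 0.09 SE). That call was lost without replicate 1 of undifferentiated KO (-0.98) and without replicate 2 of differentiating KO (-0.86), as well as with a pseudocount of 1 (-0.99) and quantile normalization (-0.89).

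In the FACIT class the clearest riser was Col14a1, which encodes the chain of type XIV collagen (undulin), found on fibrils of tendon and dermis. It went from 0.918 and 1.06 RPKM to 10.5 and 9.85 in WT and from 1.49 and 1.88 to 14.4 and 14.6 in KO, a rise of 10.3-fold and 8.60-fold (log2 fold changes 3.24 ± 0.12 and 3.04 ± 0.12 SE). KO was above WT in each state, with log2 fold changes of 0.71 and 0.50 that passed the test below the fold limit. Col12a1, its abundant relative, went up in WT from 261 and 256 RPKM to 376 and 343 and down in KO from 259.9 and 259.7 to 213 and 209. Col9a2 rose from 0.0560 and 0.0230 RPKM to 0.252 and 0.214 in WT and from 0.0408 and 0.0238 to 0.172 and 0.182 in KO. In KO its call was lost without replicate 2 of the undifferentiated state (log2 fold change 1.07 ± 0.20 SE with it, 0.98 without) and with median centring (0.99), and with a pseudocount of 1 or quantile normalization it was lost in both genotypes. Its undifferentiated values were near the 0.0164 to 0.0228 RPKM that 3 reads would give.

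Of the other collagens, those of type VI rose most in absolute terms. Type VI collagen forms beaded filaments around cells. Col6a1 went from 246 and 246 RPKM to 513 and 503 in WT and from 185 and 196 to 467 and 445 in KO (log2 fold changes 1.05 ± 0.04 and 1.26 ± 0.04 SE), where the WT value was 0.95, under the fold limit, with median centring. Col6a2 went from 102 and 94.3 RPKM to 246 and 238 in WT, a DEG (1.30 ± 0.05 SE), and from 92.4 and 96.9 to 186 and 184 in KO (0.97 ± 0.05 SE), just under the fold limit. Col6a3 rose in WT (0.52 ± 0.06 SE) and fell in KO (-0.46 ± 0.06 SE).

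Col18a1 rose from 5.27 and 5.12 RPKM to 26.9 and 25.2 in WT and from 3.50 and 3.28 to 28.0 and 29.2 in KO (log2 fold changes 2.30 ± 0.05 and 3.04 ± 0.05 SE). Col18a1 overlaps Slc19a1 on the opposite strand over 8825 bases. Col28a1 rose from 0.934 and 0.880 RPKM to 8.18 and 7.78 in WT and from 1.63 and 1.54 to 32.2 and 38.4 in KO, which is 8.80-fold and 22.3-fold. Col7a1, the gene of the anchoring fibrils under the epidermis, fell from 4.33 and 4.51 RPKM to 1.95 and 1.47 in KO, where it was a DEG (log2 fold change -1.33 ± 0.12 SE), and from 4.03 and 3.88 to 2.56 and 2.37 in WT (-0.66 ± 0.12 SE). Col23a1, a transmembrane collagen, rose in KO from 0.178 and 0.166 RPKM to 0.577 and 0.554 (log2 fold change 1.29 ± 0.14 SE) and was at 0.231 and 0.242 before and 0.379 and 0.299 after induction in WT. Its call in KO was lost with a pseudocount of 1 (0.42) and with quantile normalization (0.95).

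Markers of several lineages moved with induction. The osteoblast list had stood at 623 to 629 RPKM in undifferentiated WT and 528 to 539 in undifferentiated KO. Of its 8 genes, 1 rose (Ibsp) and 1 fell (Sp7) past both limits in each genotype. By the adjusted p alone, 2 rose (Ibsp, Spp1) and 2 fell (Sp7, Alpl) in WT. In KO 1 rose (Ibsp) and 4 fell (Runx2, Sp7, Alpl, Spp1), so the higher sum there came from Ibsp. The adipocyte list, led by Fabp4, went from 57.1 to 60.3 RPKM up to 420 to 423 in WT and from 65.1 to 67.7 up to 442 to 467 in KO, and 6 of 6 of its genes in WT and 5 of 6 in KO rose past both limits. The chondrocyte list went from 28.9 to 30.5 RPKM in the undifferentiated libraries up to the values given above, with Comp as nearly all of the sum. Of its 5 genes tested, 3 rose past both limits in WT, and 1 rose and 1 fell in KO. Sox9 rose in WT and KO (log2 fold changes 1.98 ± 0.12 and 0.89 ± 0.12 SE), while Matn3 fell in both (-0.99 ± 0.18 and -1.78 ± 0.18 SE). Endothelial markers summed to 0.542 to 4.67 RPKM over the libraries, mostly Tek. Their part in the collagen changes was not tested.

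Whether the response to induction differed between genotypes was tested by the interaction, the log2 fold change in KO minus that in WT. It passed the adjusted p for 17 of 32 members, 9 positive and 8 negative, where 39.4% of 15292 genes did. Past the fold limit were 4 positive members, Col11a2, Col27a1, Col28a1 and Col8a2, and 2 negative, Col1a1 and Col2a1, against 2.69% and 3.36% of all genes. The median of the members was 0.06, and it was -0.02 with no minimum on the mean and -0.17 with a minimum of 0.5 RPKM.

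**Figure D5:**
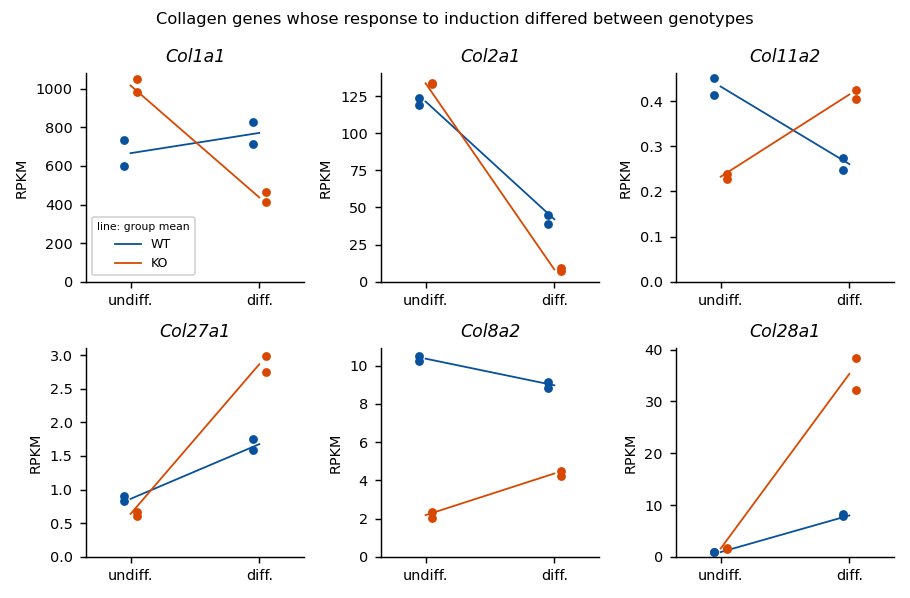
RPKM of the 6 collagen genes whose response to induction differed between genotypes past both limits, with a point per library, lines through the group means and axes that start at 0. The lines of Col1a1, Col2a1, Col11a2 and Col27a1 cross between states, Col28a1 rises further in KO, and Col8a2 rises in KO from a lower start.

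The most negative interaction was that of Col2a1, at -2.48 ± 0.18 SE (adjusted p = 0.000779, limma), since the gene fell in WT and fell further in KO. For Col1a1 it was -1.43 ± 0.18 SE (adjusted p = 0.00262, limma), from no called change in WT and a fall in KO. Members of the same class did not all follow: the interaction of Col5a2 was -0.18 ± 0.13 SE and missed the threshold (adjusted p = 0.308, limma), and that of Col3a1 was positive at 0.29 ± 0.08 SE.

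Among positive interactions, Col28a1 stood at 1.38 ± 0.13 SE (adjusted p = 0.00121, limma), and Col27a1 at 1.12 ± 0.13 SE (adjusted p = 0.00195, limma). Col8a2 had an interaction of 1.18 ± 0.10 SE (adjusted p = 0.00114, limma), as it went from 2.02 and 2.34 to 4.49 and 4.22 RPKM in KO while WT went from 10.2 and 10.5 to 9.13 and 8.81. Col11a2, the gene of another type XI chain, crossed over at low levels (interaction 1.19 ± 0.17 SE, adjusted p = 0.00358, limma). It went from 0.414 and 0.451 RPKM to 0.248 and 0.273 in WT and from 0.238 and 0.227 to 0.404 and 0.426 in KO. With a pseudocount of 1 RPKM in place of 0.1, Col27a1, Col8a2 and Col11a2 fell under the fold limit, so that 3 members in place of 6 were past both. Col12a1 and Col6a3 had interactions of -0.78 ± 0.07 and -0.98 ± 0.08 SE, below the fold limit with adjusted p of 0.00114 and 0.00099 (limma), and both rose in WT and fell in KO.

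Collagen chains assemble in fixed combinations, so the ratio of RPKM between chains of a molecule was followed as a description. Col1a1 over Col1a2 could be formed in KO alone, where it was 0.669 and 0.725 before and 0.374 and 0.442 after induction. Type I collagen of tissues holds more of the Col1a1 chain than of the Col1a2 chain, and RPKM of rRNA-depleted RNA need not follow protein. Col4a1 over Col4a2 stayed within 1.61 to 1.87 in all libraries. Col6a1 over Col6a2 lay within 2.01 to 2.60 but shifted in opposite directions, from 2.41 and 2.60 to 2.09 and 2.12 in WT and from 2.01 and 2.02 to 2.51 and 2.42 in KO. The interactions of these genes were 0.21 ± 0.06 SE for Col6a1 and -0.33 ± 0.07 SE for Col6a2 (adjusted p = 0.0377 and 0.0121, limma).

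Other ratios moved. Col6a3 over Col6a1 went from 0.483 and 0.455 to 0.335 and 0.317 in WT and from 0.582 and 0.553 to 0.174 and 0.169 in KO, so it was highest in undifferentiated and lowest in differentiating KO MSCs. Col8a1 over Col8a2 was 51.0 and 42.6 in undifferentiated KO MSCs and between 10.8 and 14.8 in the other 6 libraries. Col3a1 over Col5a2 rose with induction from 1.48 to 1.52 in the undifferentiated libraries to 2.79 and 2.70 in WT and 3.51 and 4.03 in KO. Col2a1 over Col11a1 fell from 0.882 and 0.869 to 0.283 and 0.336 in WT and from 1.59 and 1.59 to 0.0965 and 0.0829 in KO.

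The collagen genes that did not pass both limits in any comparison, apart from the abundant ones above, were Col5a3, Col11a1, Col4a1, Col4a2, Col4a5, Col4a6, Col16a1, Col9a3, Col20a1, Col15a1 and Col17a1. Col16a1, a FACIT gene, stayed within 29.6 to 35.01 RPKM in all libraries. Col5a3 rose in both genotypes, from 8.66 and 8.41 RPKM to 14.6 and 12.9 in WT and from 6.38 and 6.73 to 12.4 and 12.9 in KO. Col15a1 and Col17a1, at 0.418 to 0.655 and 0.120 to 0.190 RPKM, passed the adjusted p in none of the 5 comparisons, and the same was true of Col9a3 and Col20a1.

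Genes that modify, fold, process and crosslink collagen were taken as a list of 32 in the table. In undifferentiated MSCs 14 of 30 tested passed the adjusted p between genotypes, 11 lower and 3 higher in KO, with absolute log2 fold changes under 1, and in differentiating MSCs 19 of 29 passed it, 15 lower and 4 higher. These are 46.7% and 65.5% of the list, where 32.1% and 40.7% of all genes passed. The prolyl 4-hydroxylase gene P4ha1 was at 143 and 146 RPKM in undifferentiated WT and at 72.3 and 73.3 in undifferentiated KO, the widest genotype difference of the list in that state (log2 fold change -0.99 ± 0.05 SE). It passed the fold limit without replicate 1 of undifferentiated WT and with median centring (-1.01 each). After induction Loxl3, a lysyl oxidase gene, was at 124 and 136 RPKM in WT and at 71.5 and 56.3 in KO (log2 fold change -1.04 ± 0.11 SE, adjusted p = 0.00173, limma). No other gene of the list was a DEG between genotypes in either state with the settings used here, and the Loxl3 value came under the fold limit without replicate 2 of differentiating WT (-0.97), without replicate 2 of differentiating KO (-0.86) and with quantile normalization (-0.98).

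With induction, 23 of 29 processing genes passed the adjusted p in WT (10 higher, 13 lower) and 27 of 30 in KO (10 higher, 17 lower), which is 79.3% and 90% of the list against 64.5% and 72.9% of all genes. P4ha1 and the crosslinking enzyme gene Loxl2 fell past both limits in both genotypes, with Loxl2 at 218 and 217 RPKM before and 58.2 and 61.1 after in WT and at 150.1 and 155 before and 40.1 and 39.7 after in KO. Plod2, a lysyl hydroxylase gene, was a DEG in WT (log2 fold change -1.06 ± 0.05 SE, and -0.97 with the call lost under quantile normalization), and the genes of the chaperones Serpinh1 and Fkbp10, of P3h1, of Sec23a and of Loxl3 were DEGs in KO, though P3h1 (-0.99) and Sec23a (-0.95) came under the fold limit without replicate 2 of differentiating KO, and Sec23a (-0.92) also with quantile normalization. Serpinh1, which encodes the collagen chaperone HSP47, fell from 1194 and 1237 to 571 and 460.2 RPKM in KO and from 1333 and 1397 to 769.9 and 848 in WT. Adamts2, the gene of a procollagen N-proteinase, and Pcolce2, the gene of an enhancer of procollagen C-proteinases, rose past both limits in both genotypes. In WT the value of Adamts2 was 1.10 ± 0.06 SE, and 0.996 with the call lost under median centring. Pcolce2 went from 11.3 and 12.5 RPKM to 28.8 and 28.9 in WT and from 9.30 and 8.63 to 36.2 and 39.2 in KO. In the interaction 16 of 29 (55.2%) passed the adjusted p, against 39.4% of all genes, and Loxl3 alone was past both limits (-1.35 ± 0.16 SE).

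Of 10 collagen receptor genes in the table, 8 were tested. Itga11, the chain of an integrin that binds fibrillar collagen, was lower in KO in each state. It was at 128 and 127 RPKM in undifferentiated WT, 56.7 and 56.0 in undifferentiated KO, 44.0 and 43.1 in differentiating WT and 19.4 and 19.5 in differentiating KO, with log2 fold changes of -1.17 ± 0.03 and -1.16 ± 0.03 SE between genotypes. Itga10, the chain of another collagen-binding integrin, rose with induction from 0.433 and 0.403 RPKM to 13.5 and 12.4 in WT and from 0.394 and 0.354 to 14.0 and 14.0 in KO, and did not pass the test between genotypes. The integrin and discoidin receptor genes Itga1, Itgb1, Ddr1 and Ddr2 stayed below the fold limit in the 5 comparisons.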

How the data were processed

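Total RNA of 8 MSC cultures was depleted of rRNA and made into stranded libraries. The authors aligned reads by strand to mm10 with TopHat2 (2.1.0 per the submitters' processing notes, which also name Cufflinks 2.2.1) and used Cuffdiff. The deposited unit is RPKM, for 24346 genes and each library on its own. How libraries were scaled is not given in the sources used here.

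From there log2(RPKM + 0.1) was computed, which understates the change of low genes, and the 15342 genes whose mean reached 0.1 RPKM were tested. A value of 0 in both libraries of a group was set to missing where both libraries of another group had at least 20 RPKM. A mean per group was fitted with limma 3.58.1 (R 4.3.3) over all libraries, with a variance trend (4 residual and 1.96 prior degrees of freedom) and Benjamini-Hochberg adjustment over all genes. A DEG had an adjusted p under 0.05 and an absolute log2 fold change above 1. "Rose" and "fell" mean an adjusted p under 0.05. The fit was tested on simulated data. Of 5861 low values, 69.5% lay within 0.05 reads of a whole read (10% by chance, 204 nt taken off the transcript length), too few for a count test. Gene positions come from GENCODE (mm10).

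Members and lists were chosen with earlier results of these data known. Values are given by library for members past both limits in any comparison, for the 6 with the highest mean and for Col1a1, Col1a2, Col2a1, Col3a1 and Col10a1. Alternatives changed the pseudocount, minimum, fold limit, scaling, variance trend, zeros, libraries fitted and replicate block, and left out each library in turn.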

Additional observations from a re-analysis of the deposited data

Results flagged for a closer look

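For 6 collagen genes the change with induction differed between genotypes by the interaction term of limma, past the adjusted p and with an absolute log2 difference above 1. The values are the log2 change in KO minus that in WT, beside both changes. Col2a1 stood at -2.48 (WT -1.53, KO -4.00) and Col1a1 at -1.43 (WT 0.21, KO -1.22). Col28a1 stood at 1.38 (WT 3.00, KO 4.39), Col11a2 at 1.19 (WT -0.56, KO 0.63), Col8a2 at 1.18 (WT -0.21, KO 0.97) and Col27a1 at 1.12 (WT 0.88, KO 2.01). Groups of 2 libraries allowed no search for an outlying library.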

How the results depend on the processing

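Over 20 alternatives, 709 of 730 values of the collagen DEGs named kept their direction and their side of both limits, 21 fell under a limit and 0 reversed. This tally is in part fixed in advance, since a fold limit of 0.58 or none could only keep a call. Leaving out a library of a group not compared likewise left the fold change as it was and altered only the spread. Collagen DEGs numbered 1 (undifferentiated KO against WT), 5 (differentiating KO against WT), 10 (induction in WT), 15 (induction in KO) and 6 (interaction). Without the fold limit each count moved by over 1.5 times, to 17, 19, 24, 26 and 17. With a limit of 0.58 they were 8, 11, 15, 21 and 12, and the induction counts moved by 1.5 times or less. A pseudocount of 1 left 3 in the interaction. With zeros used as listed, undifferentiated KO against WT gave 2, as Col1a2 was then counted as higher in KO. Leaving out each library in turn gave 1 to 1, 4 to 5, 10 to 10, 14 to 15 and 6 to 7, and a lone library was then assumed to vary like the other groups.

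Replicate numbers are shared across groups, but correlations of same-numbered deviations were -0.099 to 0.032, and with 2 numbers they do not pair the libraries. A fit with the replicate block gave 1, 5, 10, 15 and 6. Near the fold limit, Col9a2 and Col8a1 in KO each lost the call under 4 alternatives. The median of the members moved by more than the spread between libraries in 14 of 89 values. For induction in WT it was 0.14 (quantile normalization), 0.13 (median centring, pseudocount of 1) and 0.37 (without replicate 2 of differentiating WT). For induction in KO it was 0.20 (quantile normalization), 0.22 (median centring), 0.13 (pseudocount of 1), 0.42 (pseudocount of 0.01), 0.16 (no minimum) and 0.07 (minimum mean of 0.5 RPKM). In undifferentiated KO against WT it was -0.09 with a pseudocount of 1 or no minimum, and in the interaction it was -0.02 with no minimum and -0.17 with a minimum of 0.5 RPKM, against 0.06. All-gene medians went down to -0.10 with median centring. Members under 1 RPKM are limited most by depth.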
